A study of Mus musculus with 8 samples.

Results

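Expression of 10 genes of activator protein 1 (AP-1) and related basic leucine zipper (bZIP) transcription factors was examined in mouse lung neutrophils during Streptococcus pneumoniae pneumonia. The genes were chosen by name, as members of the family, at a time when earlier results of these data were known. They were the FOS subfamily (Fos, Fosb, Fosl1 and Fosl2), the JUN subfamily (Jun, Junb and Jund), and Atf3, Batf and Batf2. Each was measured by a single row, matched through its RefSeq transcript accession, among the 24625 rows of the expression table. Batf and Batf2 were upregulated 16.2-fold and 19.7-fold. Fos was 1.55-fold lower in the infected group, a call that was lost under several alternative analyses, and the other 7 genes did not pass the test.

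AP-1 is not a single protein but a family of dimers. A bZIP protein binds DNA through a basic region and pairs with a partner through a leucine zipper. FOS proteins need a JUN partner to bind DNA, whereas JUN proteins can pair with each other, and ATF3 and BATF proteins also pair with JUN. Many of the genes are immediate early genes, whose transcripts appear soon after a stimulus and decay quickly. Dimers that contain FOS carry activation domains, whereas BATF proteins lack one and act together with JUN proteins and with interferon regulatory factors (IRFs).

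Wild type female C57BL/6J mice, labeled as 6 to 12 weeks old, received either S. pneumoniae suspended in phosphate-buffered saline (the SP group) or the same volume of saline alone (the PBS group), 2.3 µl per g of body weight, through the trachea into the left lung. After 24 h the lungs were perfused and digested with enzymes, and cells that bound an antibody to the neutrophil surface protein Ly6G were collected on magnetic beads. Each group comprised 4 samples, each hybridized to an Affymetrix Mouse Gene 1.1 ST array. Values are log2 intensities, so a difference of 1 corresponds to 2-fold. The figure captions of the study describe each sample as taken from a mouse, and pooling is not mentioned. The p-values measure the spread between these samples. A row was called changed at an adjusted p of 0.05 in limma (moderated linear model, two-sided, Benjamini-Hochberg adjustment over all rows).

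The cell type label was compared with marker genes. The mean level of 8 neutrophil markers was 12.81 to 12.93 on PBS arrays and 12.30 to 13.02 on SP arrays, and Ly6g itself had no matched row. The microscopic check of purity described by the study covered the pneumonia samples. Genes of several other lung cell types were also bright in the PBS group and dimmer in the SP group. The mean of 3 club cell markers was 13.18 to 13.50 on PBS arrays and 11.40 to 11.98 on SP arrays. The mean of 4 ciliated cell markers was 10.02 to 10.91 and 7.12 to 8.01, that of 9 endothelial markers 10.32 to 11.32 and 8.60 to 9.81, and that of 10 alveolar macrophage markers 8.76 to 9.44 and 7.54 to 8.14. Of those 10, 7 were called lower, beside 22.6% of all rows, and Chil3 was higher by 0.97 (adjusted p = 0.0216 by limma). The means of the monocyte and macrophage, T cell, NK cell and eosinophil lists overlapped between groups. The array values cannot distinguish fewer cells of a type from less RNA per cell, and the part that these cells had in the levels of the bZIP genes was not tested. As a measure of background, 3 Y-linked genes, which female mice lack, lay between 4.33 and 4.91.

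**Figure D1:**
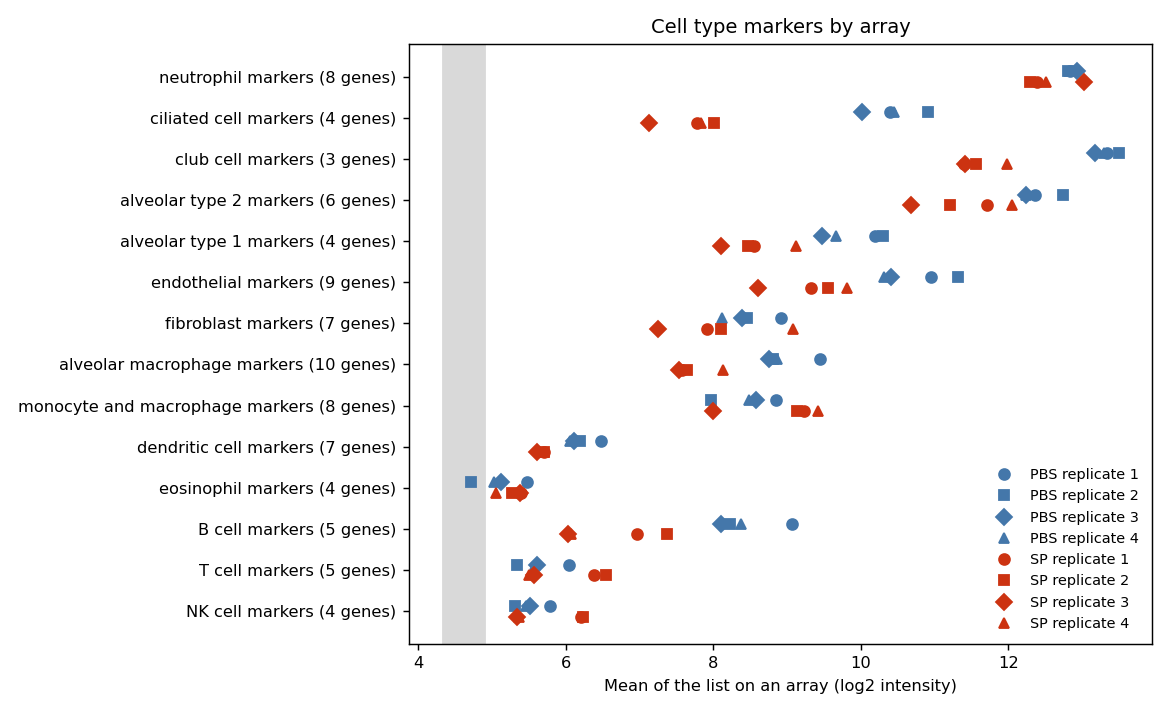
Mean log2 intensity of cell type marker lists (rows) on each array. Blue symbols are the 4 PBS arrays, red symbols the 4 SP arrays, the symbol shape gives the replicate, and the gray band spans the Y-linked background genes. Ciliated, club and endothelial lists were lower on every SP array than on every PBS array, whereas PBS and SP arrays overlapped for the neutrophil list.

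Of the 10 genes, 3 were called changed, where 44.1% of all rows were called. Of these, 2 were higher in SP (21.5% of all rows) and 1 was lower (22.6% of all rows). The 2 higher genes differed by at least 2-fold, where 17.6% of all rows passed that criterion, 6.37% upward and 11.3% downward. The PBS and SP values did not overlap for 4 of the 10, compared with 49.0% of all rows, and SP was the higher group for all 4 (27.2% of all rows had SP wholly above PBS and 21.8% wholly below). The median difference of the 10 genes was 0.23 log2 units, beside 0.10 for all rows. With so few genes these counts say little about the family as a whole, and each gene is described in turn.

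**Figure D2:**
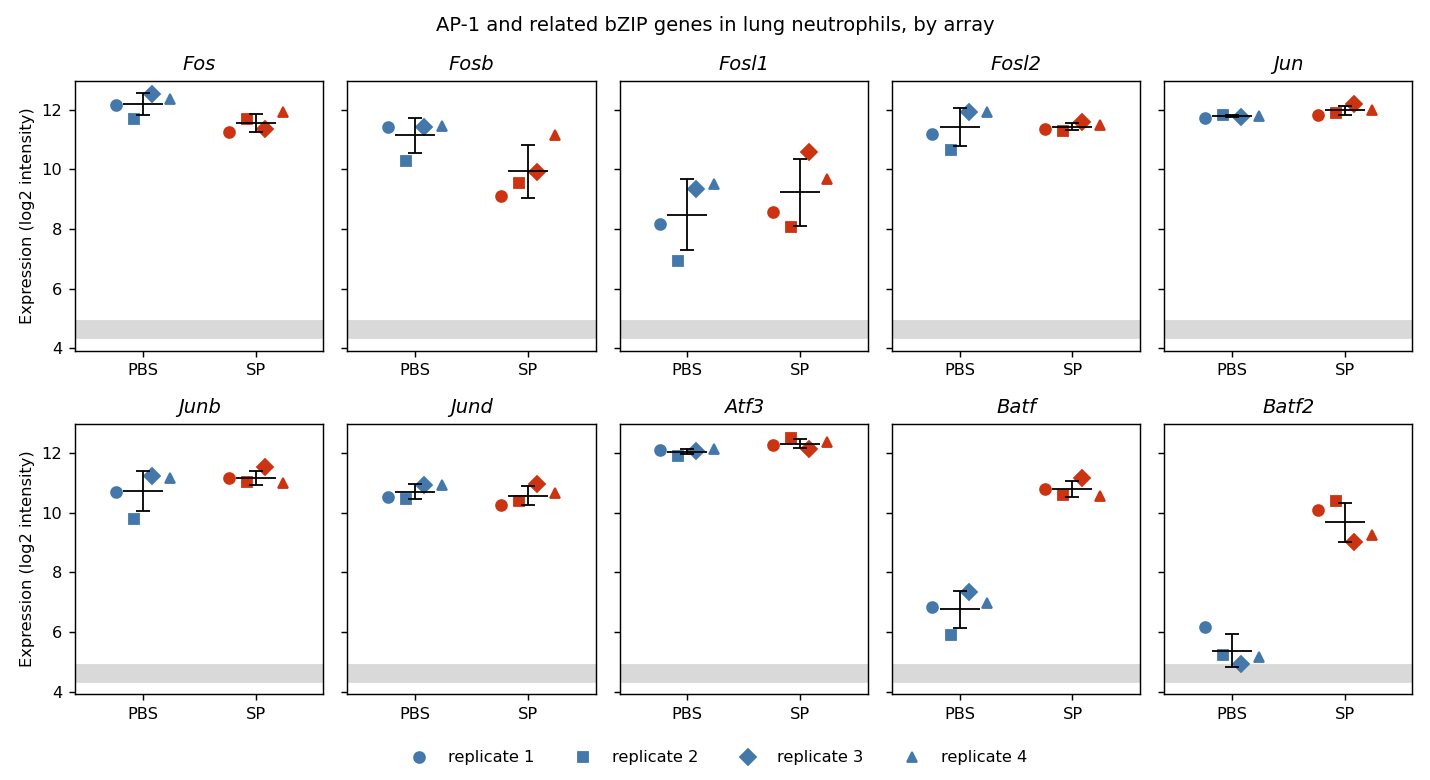
Log2 intensity of the 10 genes on each array. Points are arrays, with the shape giving the replicate, horizontal lines are group means, error bars are 1 SD (n = 4 per group) and the gray band spans the Y-linked background genes. Batf and Batf2 were the genes whose groups were far apart. The FOS genes overlapped between groups, and the narrow separation of Jun and Atf3 was small on this scale.

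Fos encodes the founding FOS protein. Its levels were 12.16, 11.70, 12.54 and 12.36 on PBS arrays 1 to 4 and 11.24, 11.69, 11.36 and 11.92 on SP arrays 1 to 4. PBS array 2 fell within the SP range, and the other PBS arrays lay above every SP array. The mean was 12.19 ± 0.36 (SD, n = 4) in PBS and 11.55 ± 0.31 in SP, a difference of -0.64 ± 0.21 (SE, 95% confidence interval -1.12 to -0.15, adjusted p = 0.0392 by limma). The call was lost when any of PBS arrays 1, 3 and 4 or SP arrays 1, 2 and 3 was left out, with the adjusted p reaching 0.0988 without SP array 1. With each of the 8 arrays left out in turn the difference stayed between -0.80 and -0.52. It was -0.35 (adjusted p = 0.161 by limma) when each array was centered on its median and -0.84 (adjusted p = 0.00735 by limma) after quantile normalization.

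Fosb encodes a FOS protein with its own activation domain. It was 11.43, 10.27, 11.42 and 11.46 on the PBS arrays and 9.11, 9.54, 9.93 and 11.17 on the SP arrays. A single array of each group departed from its fellows, PBS array 2 downward and SP array 4 upward, and these made the groups overlap. The means were 11.15 ± 0.58 and 9.94 ± 0.89 (SD, n = 4), a difference of -1.21 ± 0.45 (SE, 95% confidence interval -2.25 to -0.17) that missed the threshold (adjusted p = 0.0590 by limma). Without SP array 4 the difference was -1.62 (adjusted p = 0.00713), and without PBS array 2 it was -1.50 (adjusted p = 0.0311), both by limma.

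Fosl1 and Fosl2 encode FRA proteins, FOS relatives that lack a strong activation domain. Fosl1 was 8.17, 6.92, 9.33 and 9.52 in PBS and 8.59, 8.08, 10.57 and 9.67 in SP. It varied by more than 2 log2 units within each group, and its difference of 0.74 ± 0.70 (SE, 95% confidence interval -0.86 to 2.34, adjusted p = 0.385 by limma) was smaller than the SD of either group. Without the arrays PBS 2 and SP 3 together it was -0.23.

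Fosl2 was 11.17, 10.64, 11.92 and 11.93 in PBS and 11.36, 11.30, 11.58 and 11.48 in SP. The SP arrays lay close together inside the wider PBS range. The difference was 0.016 ± 0.28 (SE, 95% confidence interval -0.62 to 0.65, adjusted p = 0.963 by limma), and its sign depended on the scaling of the arrays.

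The JUN genes encode the partners that FOS proteins require. Jun was 11.74, 11.82, 11.77 and 11.77 in PBS and 11.84, 11.89, 12.18 and 12.00 in SP. Every SP array was above every PBS array, and the PBS arrays differed among themselves by an SD of only 0.033. The difference was 0.20 ± 0.089 (SE, 95% confidence interval -0.00035 to 0.41, 1.15-fold, adjusted p = 0.0917 by limma). It passed at 0.48 (adjusted p = 0.00548 by limma) with arrays centered on their medians and was -0.056 after quantile normalization, so its direction depended on the scaling.

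Junb, which often restrains JUN activity, was 10.68, 9.80, 11.23 and 11.16 in PBS and 11.14, 11.04, 11.51 and 10.99 in SP. PBS array 2 was the lowest and SP array 3 the highest, and the remaining arrays overlapped. The difference was 0.46 ± 0.30 (SE, 95% confidence interval -0.24 to 1.15, adjusted p = 0.233 by limma), and it was 0.035 without those arrays.

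Jund, the JUN gene that is transcribed most steadily in resting cells, was 10.52, 10.45, 10.93 and 10.91 in PBS and 10.24, 10.39, 10.96 and 10.67 in SP. The groups overlapped almost completely. The difference was -0.14 ± 0.18 (SE, 95% confidence interval -0.56 to 0.28, adjusted p = 0.527 by limma), and it was 0.14 with arrays centered on their medians.

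Atf3 encodes a stress-induced factor that acts mainly as a repressor and limits cytokine transcription downstream of Toll-like receptors. It was 12.08, 11.90, 12.08 and 12.13 in PBS and 12.27, 12.49, 12.13 and 12.36 in SP. Every SP array was above every PBS array, although the highest PBS and the lowest SP array were equal to the second decimal. The difference of 0.27 ± 0.096 (SE, 95% confidence interval 0.045 to 0.49, 1.20-fold) missed the threshold (adjusted p = 0.0526 by limma). It passed without SP array 3, at 0.33 (adjusted p = 0.0178), and with arrays centered on their medians, at 0.55 (adjusted p = 0.00301), and it was 0.019 (adjusted p = 0.902) after quantile normalization, all by limma.

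Batf encodes a small bZIP protein that pairs with JUN proteins and binds composite DNA elements together with IRF4 or IRF8. It was 6.83, 5.89, 7.34 and 6.98 in PBS and 10.79, 10.61, 11.16 and 10.56 in SP. The lowest SP array was above the highest PBS array by several log2 units, and all PBS arrays were above the Y-linked background. The means were 6.76 ± 0.62 and 10.78 ± 0.27 (SD, n = 4), a difference of 4.02 ± 0.29 (SE, 95% confidence interval 3.35 to 4.69, 16.2-fold, adjusted p = 2.73e-05 by limma). It ranked 80 among all rows by the size of its difference. With each array left out in turn the difference was 3.73 to 4.21.

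Batf2, a relative of BATF that is induced by interferon gamma and by microbial products in myeloid cells, was 6.18, 5.23, 4.93 and 5.15 in PBS and 10.07, 10.38, 9.01 and 9.24 in SP. The lowest PBS array, PBS 3, was next to the upper end of the Y-linked background, so the PBS level is close to what the array can measure and the fold change is not exact. The means were 5.37 ± 0.55 and 9.68 ± 0.66 (SD, n = 4), a difference of 4.30 ± 0.37 (SE, 95% confidence interval 3.46 to 5.15, 19.7-fold, adjusted p = 5.99e-05 by limma). The difference ranked 54 among all rows. With each array left out in turn it was 4.07 to 4.57. Within PBS, Batf2 was highest on PBS 1, as were the B cell (9.07), T cell (6.04) and NK cell (5.79) lists. Within SP it was highest on SP 2, as were those lists (7.37, 6.55 and 6.23). Between groups the B cell list was lower in SP, and the T and NK cell lists overlapped. The monocyte and macrophage list was highest on PBS 1 (8.86) and on SP 4 (9.42). The part of these cells in the Batf2 values was not tested.

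**Figure D3:**
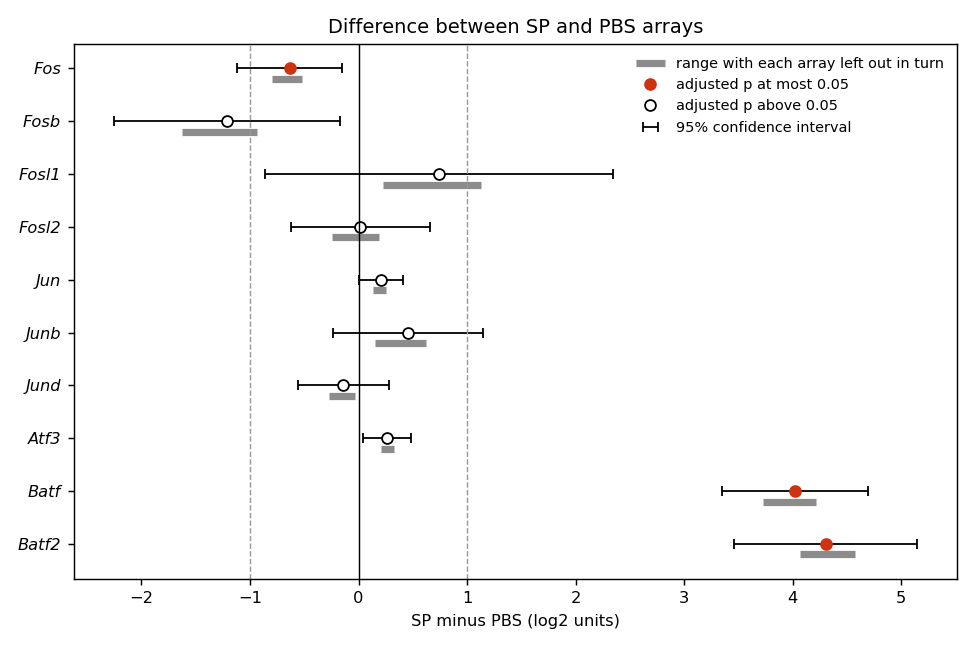
Difference between SP and PBS (log2 units) for the 10 genes. Points are limma estimates (red, adjusted p at most 0.05), error bars are 95% confidence intervals, gray bars are the range with each array left out in turn, and dashed lines mark 2-fold. Batf (4.02) and Batf2 (4.30) lay beyond 2-fold in every such fit, whereas the gray bar of Fosl2 crossed 0.

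The same arrays were low or high for several of the genes. PBS array 2 was the lowest of its group in 8 of the 10 genes, against 36.3% of all rows, with Jun and Batf2 as the exceptions. Its deviation from the PBS mean was -1.56 for Fosl1, -0.92 for Junb, -0.87 for Fosb and -0.87 for Batf. SP array 3 was the highest of its group in 6 of the 10, against 41.1% of all rows, and exceeded the SP mean by 1.35 for Fosl1 and 0.34 for Junb. PBS array 2 was also the lowest of its group in 15 of 17 other immediate early genes, and SP array 3 the highest in 12 of the 17.

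These arrays also stood at the ends of the marker lists. Within its group PBS array 2 had the highest level of ciliated (10.91), club (13.50), alveolar type 2 (12.75), alveolar type 1 (10.30) and endothelial (11.32) markers and the lowest level of neutrophil markers (12.81). Within its group SP array 3 had the lowest level of ciliated (7.12), alveolar type 2 (10.68), alveolar type 1 (8.10) and endothelial (8.60) markers and the highest level of neutrophil markers (13.02). Both arrays were the lowest of their group for monocyte and macrophage markers, PBS 2 at 7.97 where the other PBS arrays were 8.48 to 8.86, and SP 3 at 8.00 where the other SP arrays were 9.14 to 9.42. The part of these cells in the array-to-array variation of the bZIP genes was not tested. Without both arrays, Batf and Batf2 differed by 3.60 and 4.48, Fos by -0.74 (adjusted p = 0.0193 by limma), and the counts were 3 higher and 2 lower. Of all 24625 rows, 10277 were then called in either direction.

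**Figure D4:**
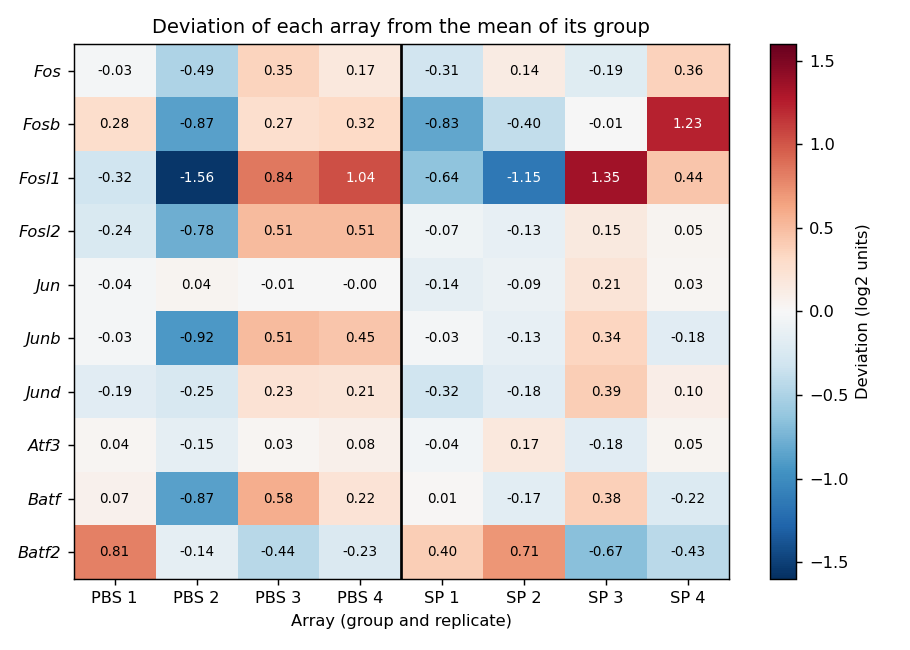
Deviation of each array (columns) from the mean of its group for the 10 genes (rows), in log2 units, with red above and blue below the mean. PBS 2 was below its group mean for every gene but Jun, most for Fosl1 (-1.56), and the largest upward deviation was Fosl1 on SP 3 (1.35).

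Promoter sequences were examined because Fos, Batf and the other genes are themselves targets of signal-responsive factors. The RefSeq promoter table (assembly GRCm38.p6), with 250 bases before and 50 after each transcription start, held 8 of the 10 genes and not Fosl1 or Batf2. Both strands were searched for 6 motifs. These were the TPA response element TGACTCA (in 5.2% of 32851 promoters), the cAMP response element TGACGTCA (1.79%), the serum response element or CArG box (1.63%), the gamma-activated site TTCNNNGAA bound by STAT factors (8.3%), the core of the interferon-stimulated response element, which is GAAA, any 2 bases and GAAA again (3.44%) and the kappaB site bound by NF-κB (8.46%). The first 4 matched none of the 8 promoters, which says only that those letters were not in these windows.

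The kappaB site matched 3 of the 8 promoters, those of Fos, Fosb and Fosl2, and the interferon-stimulated core matched that of Fosl2. A match is a description of letters, not of binding. Capitals mark the match in each 30-base stretch, which is written 5′ to 3′ along the gene. The matches begin at base -214 (Fos), -188 (Fosb), -182 (Fosl2, kappaB) and -221 (Fosl2, interferon-stimulated core) from the transcription start. The Fos match and the interferon-stimulated match are read on the opposite strand, the kappaB match of Fosl2 overlaps another match shifted by 1 base, and the Fosb gene lies on the minus strand.
Fos, kappaB, chr12:85473666-85473695 (+): ggaaggtctaGGAGACCCCCtaagatccca
Fosb, kappaB, chr7:19310214-19310243 (-): acgcagccttGGGGACCCCCgagaccccca
Fosl2, kappaB, chr5:32136280-32136309 (+): agatcggggaGGGAGTCCCCcagagctgcc
Fosl2, interferon-stimulated core, chr5:32136241-32136270 (+): accggcagctTTTCTTTTTCgcctttttgg
The differences between SP and PBS of these genes, given above, were -0.64 (Fos), -1.21 (Fosb) and 0.016 (Fosl2).

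The promoters of Jun, Junb, Jund and Atf3 matched none of the 6 motifs, and these genes were not called changed. That of Batf, which changed 16.2-fold, matched none either, and Batf is shown here. The 250 bases before its transcription start (chr12:85686470-85686719, plus strand, GRCm38.p6) have a GC content of 46.4% and carry no capitals because nothing matched.
Batf: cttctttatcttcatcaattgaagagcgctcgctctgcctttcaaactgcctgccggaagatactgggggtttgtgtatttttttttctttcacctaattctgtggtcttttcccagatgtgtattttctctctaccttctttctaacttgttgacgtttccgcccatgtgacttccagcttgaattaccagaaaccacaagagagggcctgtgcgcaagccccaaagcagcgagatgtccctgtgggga

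The genes whose pattern over the 8 arrays was most like that of Batf were Aoah, Ifit1 and Slfn9. Likeness was measured as the mean absolute difference between values expressed relative to the gene's own PBS mean, over 19831 other rows with a symbol. It was 0.173 for Aoah, which encodes an enzyme that inactivates endotoxin, 0.173 for Ifit1, an interferon-induced RNA-binding protein, and 0.210 for Slfn9, a member of the schlafen family. These genes differed between groups by 4.04, 3.80 and 4.25 log2 units. For Batf2 the most similar were Nlrc5 (0.212), a transactivator of MHC class I genes, the bZIP gene Creb5 (0.284) and the tubulin gene Tuba8 (0.296), with differences of 4.47, 4.02 and 4.18. The measure is dominated by the size of the difference between groups.

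Other bZIP genes, not all of which pair with AP-1 proteins, were followed as a list of 16, of which 15 had a row. In SP, 12 of the 15 were higher, 9 of them at least 2-fold, and none was lower. Of all rows 21.5% were higher, 6.37% at least 2-fold higher and 22.6% lower. The median difference was 1.18. Creb5, a relative of ATF2, rose 16.2-fold (4.02 ± 0.33, SE, adjusted p = 4.62e-05). Maff, a small MAF protein without an activation domain, rose 5.52-fold (adjusted p = 0.000514). Jdp2, which represses AP-1 by pairing with JUN, went up 4.00-fold (adjusted p = 0.00265), its levels being 9.40 ± 0.82 in PBS and 11.41 ± 0.19 in SP (SD, n = 4). The brightest of the list were Atf2, which rose by 0.54 (adjusted p = 0.00608), and Nfil3, a repressor whose difference was 0.43 (adjusted p = 0.338). All p-values are from limma. With centered arrays, and likewise with quantile normalization, 13 were higher and none was lower. Of all 24625 rows, 18255 and 10245 were called in either direction in those settings.

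BATF acts with IRF4 in lymphocytes and with IRF8 in dendritic cells. Irf4 fell from 6.45 ± 0.34 to 5.25 ± 0.27 (SD, n = 4, difference -1.20, adjusted p = 0.00156 by limma). Its SP values, 4.98 to 5.58, lay near the upper end of the Y-linked background (4.91), so the size of the fall is not exact. Irf8 rose from 8.15 ± 0.41 to 9.40 ± 0.71 (difference 1.25, adjusted p = 0.0218 by limma), but its groups overlapped and the call was lost without any of PBS arrays 3 and 4 and SP arrays 1 and 2, with an adjusted p of up to 0.0592. With the methods' t-test Irf8 was not called either (adjusted p = 0.0533). Both IRF genes are also expressed by B cells, and Irf8 by monocytes. The mean of 5 B cell markers was 8.10 to 9.07 on PBS arrays and 6.03 to 7.37 on SP arrays, lower in SP as Irf4 was. Of 8 monocyte and macrophage markers with a row, 3 were higher in SP and none lower, beside 21.5% and 22.6% of all rows. Their means were 7.97 to 8.86 on PBS arrays and 8.00 to 9.42 on SP arrays. Within SP, Irf8 (8.37) was lowest on array 3, as were the monocyte and macrophage (8.00), B cell (6.03) and endothelial (8.60) lists. Within PBS, Irf8 (8.76) and the monocyte and macrophage list (8.86) were both highest on PBS 1. That list was lowest on PBS 2 (7.97), whereas Irf8 was lowest on PBS 3 (7.88). The part of these cells in the IRF values was not tested.

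Upstream of AP-1, mitogen-activated protein (MAP) kinases phosphorylate JUN, ATF and ternary complex factors. Of 19 genes of the MAP kinase cascade, 6 were higher and 5 lower, beside 21.5% and 22.6% of all rows. The rises were led by Mapk7, which encodes ERK5 (6.81-fold, adjusted p = 3.53e-06), Map3k8, which encodes the kinase TPL2 that links Toll-like receptors to ERK (5.64-fold, adjusted p = 7.38e-05), and Map2k1, which encodes MEK1 (3.09-fold, adjusted p = 0.00064). Mapk14, the p38 alpha kinase, fell by 1.43 log2 units (adjusted p = 0.000198), Map3k5, the stress kinase ASK1, by 1.03 (adjusted p = 0.00265) and Mapk3, which encodes ERK1, by 0.85 (adjusted p = 0.000365). Map2k3, among the brightest of the list, differed by 0.53 (adjusted p = 0.0535), and it passed under several alternatives, at 0.81 with centered arrays (adjusted p = 0.00907). All p-values are from limma. The median difference was -0.21, and it was 0.07 with arrays centered on their medians.

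Serum response factor (SRF) and its cofactors drive Fos and other immediate early genes. Of 5 such genes with a row, 3 were lower and 1 higher, beside 22.6% and 21.5% of all rows. Srf fell by 0.72 log2 units (adjusted p = 0.00428), and its cofactors Mrtfa and Mrtfb fell by 1.35 (adjusted p = 0.000657) and 0.82 (adjusted p = 0.0116). Within its group Mrtfb was highest on PBS 2 (9.81) and lowest on SP 3 (8.10), as the endothelial list was. Srf (9.24) and Mrtfa (8.87) were instead lowest within PBS on PBS 2. Within SP, Mrtfa was lowest on SP 3 (7.76), as Mrtfb was, and Srf on SP 1 (8.53). The part of other cells in these falls was not tested. The ternary complex factor Elk1 was higher by 0.43 (adjusted p = 0.0433), a call lost without any of PBS arrays 1, 2 and 4 and SP arrays 1 and 2, and with the methods' t-test, the replicate block or the trended robust prior (adjusted p = 0.0712, 0.103 and 0.0598). Elk3 differed by 0.07 (adjusted p = 0.853). All p-values but that of the methods' t-test are from limma.

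Immediate early genes other than the FOS and JUN families were followed as a list of 18, of which 17 had a row. In SP, 9 were higher, 7 of them at least 2-fold, and 2 were lower, with a median difference of 0.61. Of all rows 21.5% were higher, 6.37% at least 2-fold higher and 22.6% lower. The number lower was 1 without any of PBS arrays 1 and 4 and SP arrays 1, 2 and 3, with centered arrays and with the methods' t-test, and 3 after quantile normalization and without SP array 4. Egr3, a zinc finger factor, rose 9.10-fold (adjusted p = 1.42e-05), the nuclear receptor Nr4a3 rose 6.36-fold (adjusted p = 0.00331) and Ier3, a regulator of cell survival, rose 5.03-fold (adjusted p = 0.000453). The related receptor Nr4a2 fell by 1.54 log2 units (adjusted p = 0.00236). The brightest were Btg2, an antiproliferative gene (difference -0.25, adjusted p = 0.175), and Dusp1, a phosphatase that inactivates MAP kinases (0.15, adjusted p = 0.190). Btg2 was called lower after quantile normalization (-0.46, adjusted p = 0.00795) and without PBS array 2 (-0.37, adjusted p = 0.0327) but was 0.035 with centered arrays, where Dusp1 was called higher (0.43, adjusted p = 0.0119). All p-values are from limma.

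Genes known from textbooks as AP-1 targets were followed as a list of 19, of which 18 had a row. In SP, 11 were higher, 9 of them at least 2-fold, and 2 were lower, with a median difference of 0.95, beside the same shares of all rows (21.5% higher, 6.37% at least 2-fold higher and 22.6% lower). Timp1, an inhibitor of matrix metalloproteinases, rose 13.4-fold (adjusted p = 9.67e-05), Plau, the urokinase protease, 12.1-fold (adjusted p = 0.00014) and Edn1, the vasoconstrictor endothelin, 6.15-fold (adjusted p = 5.35e-05). Ccnd1, a cell cycle cyclin, fell by 1.22 log2 units (adjusted p = 0.00252). Mmp9, a metalloproteinase stored in neutrophil granules, was lower by 0.59 (adjusted p = 0.0238), a call lost without any of PBS arrays 3 and 4 and SP arrays 1 and 2 and with centered arrays (-0.31). Within its group Ccnd1 was highest on PBS 2 (11.06) and lowest on SP 3 (8.91), as the endothelial list was. Mmp9 was instead lowest on PBS 2 (12.75) and highest on SP 3 (12.73). The part of other cells in these falls was not tested. Fth1, the ferritin heavy chain and the brightest of the list, rose by 0.31 (adjusted p = 0.00495). All p-values are from limma.

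The study named 16 genes as regulated by AP-1, and all 16 were at least 2-fold higher in SP, beside 6.37% of all rows. Their median difference was 2.17. That list was chosen on these samples among upregulated genes, so its count is not independent evidence of a direction. It shares Timp1 and Spp1 with the textbook targets and Egr2 with the immediate early genes. The largest rises were Nos2, the inducible nitric oxide synthase (13.9-fold, adjusted p = 0.000105), Timp1 and Relb, a subunit of NF-κB (8.53-fold, adjusted p = 1.95e-05). The brightest were Hmox1, which encodes heme oxygenase (4.44-fold, adjusted p = 3.64e-05), and Tapbp, which encodes the peptide loading factor tapasin (2.56-fold, adjusted p = 1.02e-05), all by limma.

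**Figure D5:**
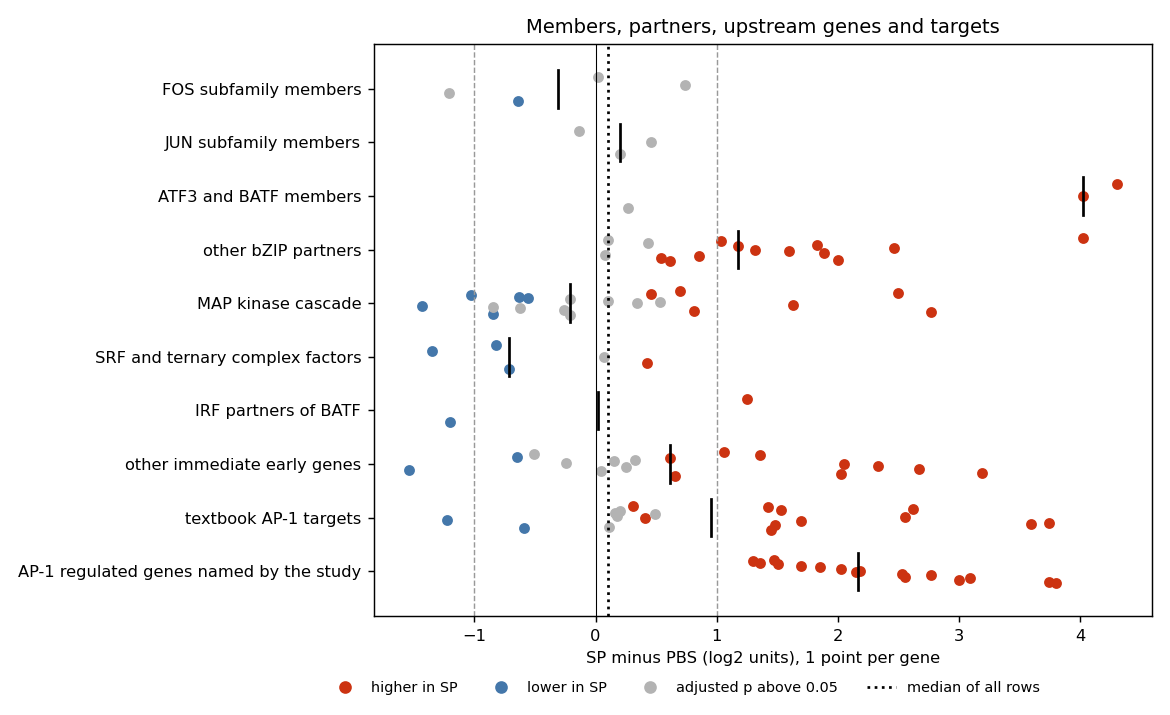
Difference between SP and PBS (log2 units) of each gene, grouped by list. Red points were higher and blue points lower at an adjusted p of at most 0.05, gray points did not pass, short black lines are list medians, dashed lines mark 2-fold and the dotted line is the median of all rows (0.10). Medians were 1.18 for other bZIP partners, 0.95 for textbook AP-1 targets and -0.31 for the FOS subfamily, which was -0.029 with centered arrays, -0.52 after quantile normalization or without PBS 2, -0.17 without PBS 3 and -0.20 without PBS 4, and that of the MAP kinase cascade (-0.21) was above 0 with centered arrays.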

How the data were processed

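Messenger RNA was measured on 8 arrays, with groups and replicate numbers read from the titles. The authors made the deposited log2 intensities by robust multi-array averaging, which corrected background and probe composition, quantile-normalized the arrays and summarized probes by median polish. The submitters' notes name Affymetrix Expression Console, RMA and Partek, without versions. Array medians were 6.06 to 6.20 for PBS and 5.78 to 5.91 for SP, so differences depend on the scaling, and total RNA per cell cannot be read from them. The number of arrays limits the precision. No genome build is attached to the rows, so no gene coordinates are given. Symbols came from RefSeq (GRCm38.p6) through accessions, for 19911 of 24625 rows (80.9%). A gene without a match was not analysed here.

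SP and PBS were compared over all rows with limma 3.58.1 in R 4.3.3 (lmFit, eBayes, no covariates, two-sided, Benjamini-Hochberg), in place of the one-way ANOVA of the study. The code was first tested on simulated data. Figures used Python 3.11.15. The genes and lists were chosen with earlier results of these data known. Besides the 10 genes, those named were, of each list, up to 3 rises and 3 falls with the largest differences among calls without overlap between groups, and the 2 brightest; marker lists are given by their mean level. Irf8 was named as 1 of a list of 2. Alternatives were the methods' t-test, the replicate number as a block, arrays centered on their medians, quantile normalization, leaving out rows dimmer than the median row, a trended robust prior and leaving out each array in turn. Leaving out PBS 2 and SP 3 together was added after seeing the data. Protein sequences and the microRNA arrays were not analysed here.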

Additional observations from a re-analysis of the deposited data

Results flagged for a closer look

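Among the 20 sets of 4 values (10 genes in each group), 1 array stood apart from the rest of its group by Dixon's gap ratio, the gap to the nearest value over the range. Fosb was 10.273 on PBS array 2, where the other PBS arrays lay between 11.42 and 11.46, a ratio of 0.966. Chance flags about 1 in 20 such sets, so a single flag is no more than chance gives. PBS array 2 was also the lowest of its group for 8 of the 10 genes.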

How the results depend on the processing

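Batf and Batf2 kept their direction and their call under every alternative run. The call of Fos was lost with the methods' t-test (adjusted p = 0.0749) and with arrays centered on their medians (-0.35). The call was kept after quantile normalization (-0.84), and without dim rows or with a trended robust prior (-0.64 in each). With each array left out the difference of Fos was -0.80 to -0.52. Fosb passed after quantile normalization (-1.34), without dim rows or with a trended robust prior (-1.21 in each), and without PBS 2 and SP 3 (-1.50), and was -1.62 to -0.94 with single arrays left out. Jun passed with centered arrays (0.48) and was -0.056 after quantile normalization. Atf3 passed with centered arrays (0.55) and without PBS 2 and SP 3 (0.28), and was 0.21 to 0.33 with single arrays left out. The sign changed for Jund with centered arrays (0.14), for Fosl1 without PBS 2 and SP 3 (-0.23), and for Fosl2 after quantile normalization (-0.20), without PBS 1 (-0.065), without PBS 2 (-0.24), without SP 3 (-0.035) and without PBS 2 and SP 3 (-0.29). With single arrays left out Fosl2 was -0.24 to 0.19. The genes called higher numbered 4 with centered arrays, where 18255 of all 24625 rows were called in either direction. Those called lower numbered 0 with the t-test and with centered arrays, 2 after quantile normalization, without dim rows, with the robust prior and without PBS 2 and SP 3, and 0 to 2 with single arrays left out. Rows called in either direction numbered 10244 with the t-test, 10245 after quantile normalization and 12092 with the robust prior. They numbered 7424 of 12313 without dim rows, 10277 without PBS 2 and SP 3, and 8200 to 10907 with single arrays left out. Of other genes, Btg2 was 0.035 with centered arrays but called lower after quantile normalization (-0.46) and without PBS 2 and SP 3 (-0.43), Dusp1 passed with centered arrays (0.43), Map2k3 passed with the block, centered arrays, dim rows left out, the robust prior and without PBS 3 or PBS 4 (0.53 to 0.81), Nfil3 -0.011 without PBS 2 and SP 3, and Elk3 -0.057 to 0.36 with single arrays left out, below 0 without PBS 3, PBS 4, SP 1, SP 2 or SP 4. The causes were not tested.

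With the replicate number as a block, Fos (-0.64) was no longer called (adjusted p = 0.0587 by limma), while Fosb (-1.21, adjusted p = 0.0397) and Fosl1 (0.74, adjusted p = 0.0434) were. Of the 10 genes 3 were then higher and 1 lower, where 9842 of all 24625 rows were called in either direction. The labels do not say whether equal numbers mark pairs, and correlations over all rows cannot decide it. Correlations of same-numbered deviations were -0.27 to 0.35, with 1 of 4 above 0.1, and 1 of 4 PBS and 1 of 4 SP arrays correlated best with its own number.

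Centering moved the median difference of all rows from 0.10 to 0.38, the rows called from 10860 to 18255, and the share of lower genes among calls of at least 2-fold from 63.9% to 44.4% (53.9% after quantile normalization), so small differences such as those of Jun, Jund and Atf3 have no settled size. Signal near background limits the fold change of Batf2 and the size of the fall of Irf4.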
